A study of Mus musculus with 6 samples.

Results

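The E2F transcription factors were examined in B cells sorted from mouse Peyer's patches, where germinal center (GC) cells were set beside resting, naive cells. The family was taken as 10 genes, E2f1 to E2f8 and the genes of their dimerization partners, Tfdp1 and Tfdp2. They were found by matching each symbol to its Ensembl gene identifier, and all 10 were present once among the 39179 genes in the table. RNA-Seq had been performed on 3 biological replicates per population. Both populations came from wild-type C57BL/6 female mice aged 12 wk, and each replicate was a pool of cells from 5 mice, so that variation between single animals was not measured. GC B cells were sorted from the ileum patches as Fas+GL7+ cells and naive B cells as Fas-GL7- cells.

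E2F proteins bind DNA next to the start sites of genes needed for DNA replication and cell division, most of them as dimers with a DP protein. E2F1, E2F2 and E2F3 are activators that are held inactive by the retinoblastoma protein until cyclin-dependent kinases phosphorylate it. E2F4 and E2F5 repress the same genes in quiescent cells together with the retinoblastoma relatives p107 and p130, E2F6 represses as part of a polycomb complex, and E2F7 and E2F8 are atypical repressors that bind DNA without a DP partner and switch genes off late in S phase. GC B cells are among the fastest dividing cells of the body, whereas naive B cells are quiescent.

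The authors quantified transcripts as FPKM, fragments per kilobase of transcript scaled to the mapped fragments, which were rescaled here to TPM, which sum to 1000000 in each pool, so that levels of different genes can be compared per length. The pools held about 9800000 to 16200000 reads each as estimated from the steps between low values, and 12075 to 12450 genes per pool reached 1 TPM. The sorted populations carried markers of their labels. Bcl6, the regulator of the GC program, ranged from 241.8 to 258.0 TPM in GC pools and from 46.9 to 51.6 TPM in naive pools, and the proliferation gene Mki67 from 227.1 to 229.1 TPM and from 0.697 to 0.905 TPM. Fcer2a, a marker of naive follicular B cells, ranged from 97.5 to 106.9 TPM in GC pools and from 680.5 to 715.1 TPM in naive pools, and the B cell gene Pax5 from 175.2 to 191.4 TPM and from 203.9 to 257.2 TPM. Among markers of other cells, the sum of 4 T cell genes was 1.41 to 3.51 TPM in GC pools and 1.67 to 2.31 TPM in naive pools, that of 4 myeloid genes was 0.836 to 2.17 TPM and 3.14 to 6.41 TPM, with S100a8 listed at 0 in all 6 pools, that of 4 plasma cell genes, of which Prdm1 (5.01 TPM in GC and 0.955 TPM in naive pools) was called higher and 3 lower in GC B cells, was 130.6 to 134.9 TPM and 191.9 to 212.0 TPM, and that of 5 gut epithelium genes was 18.2 to 32.6 TPM and 40.3 to 59.1 TPM. Of the latter 3 were called lower and 1 higher in GC B cells.

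Most of the family was expressed at higher levels in GC B cells than in naive B cells, and the members differed widely in how much. The differences ran from 1.39-fold for E2f4 to 18.5-fold for E2f1 among the E2f genes expressed in both populations, and the partner gene Tfdp1 was 12.9-fold higher. E2f7 and E2f8 were close to absent from naive pools and averaged 16.7 and 56.8 TPM over GC pools. Tfdp2 was the exception, with lower values in GC pools. The plot of TPM by pool shows these levels side by side.

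**Figure D1:**
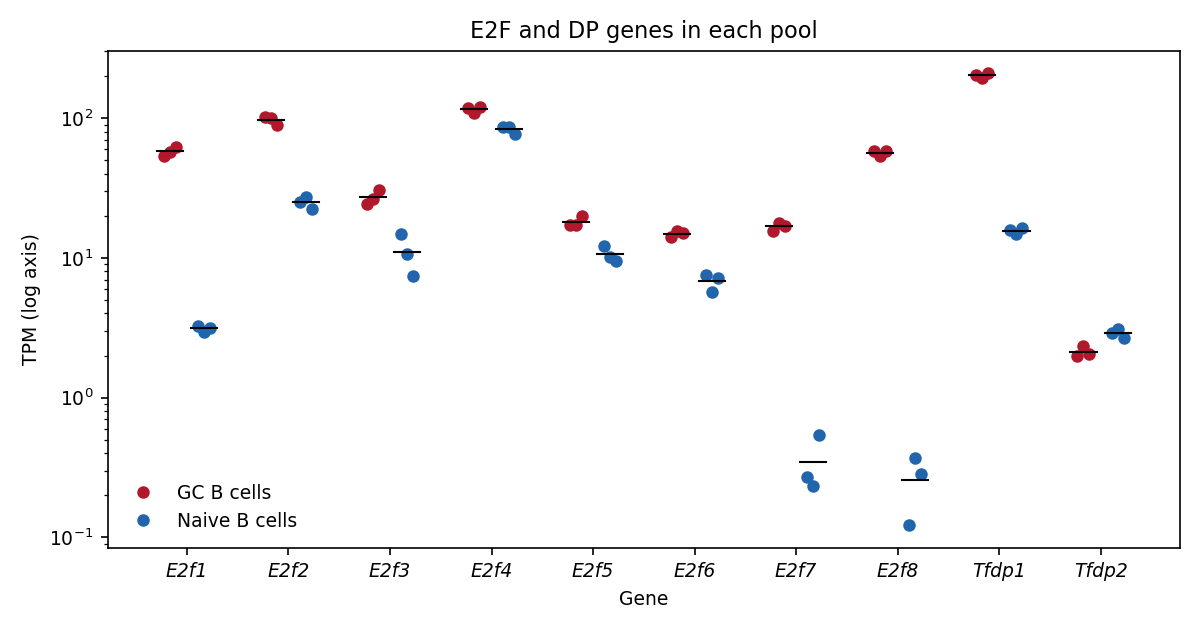
TPM on a log axis for the 10 E2F and DP genes in each of 3 GC and 3 naive pools, 1 point per pool. The GC points lie above all naive points for 9 genes, the gap is widest for E2f8 (53.7 to 58.6 TPM against 0.122 to 0.370 TPM), and the order is the opposite for Tfdp2.

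Genes were compared with limma on log2(TPM + 1) over the 12785 genes that reached 1 TPM in 3 or more pools, and an adjusted p under 0.05 was called. These p-values measure the spread between pools. In this fit 35.5% of all genes tested were called higher in GC B cells and 30.1% were called lower, so that a call by itself was common. E2f7 and E2f8 passed the filter only through their GC levels and could hardly have failed to differ. Among the 8 members with a mean of at least 1 TPM in both populations, 7 were called higher and 0 lower (Tfdp2 fell below an unadjusted p of 0.05 only), whereas 33.8% of the 11366 genes of that kind were called higher and 29.9% lower. The median difference of these 8 members was 1.16 on the log2 scale, beside 0.02 for the 11366 genes. All 3 GC pools lay above all 3 naive pools for the 7 members called higher among these 8. The same held for E2f7 and E2f8, where the filter all but fixed it. Of all genes tested 37.8% had this arrangement, a share not restricted to genes expressed in both populations. Since RNA was taken from cells in bulk, more cells that express a gene and more RNA per cell cannot be told apart in any of these differences.

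**Figure D2:**
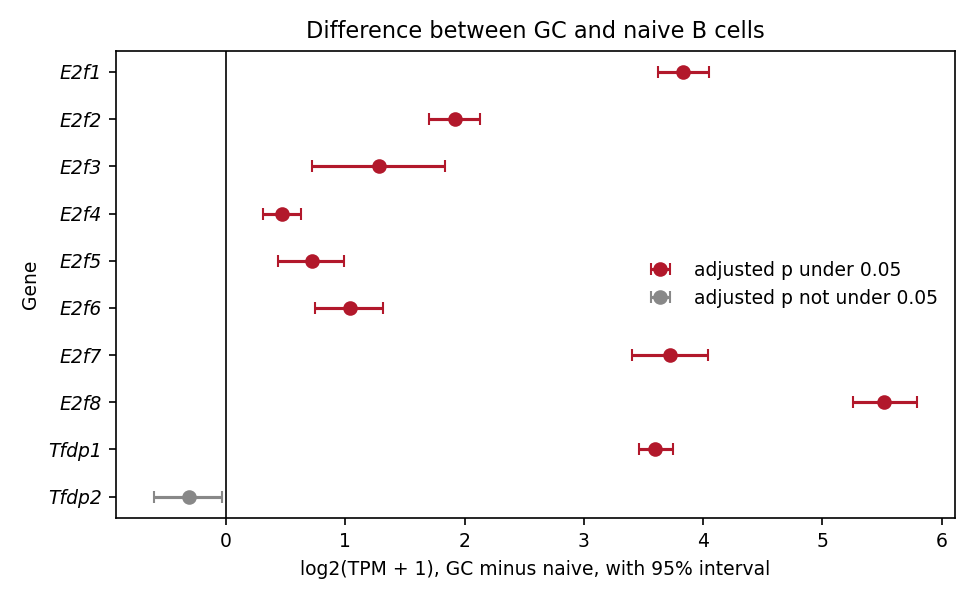
Difference in log2(TPM + 1) between GC and naive B cells (GC minus naive) for each member, with the 95% interval from limma, not adjusted for the number of genes (n = 3 pools per population). Red marks an adjusted p under 0.05, and the values run from -0.31 for Tfdp2 to 5.52 for E2f8.

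Because several members moved together, their promoters were searched for E2F binding words. RefSeq promoter windows (build GRCm38.p6), each from 250 bases before a start site to 50 after it, were at hand for 8 members with 12 windows, and E2f4 and E2f5 had no window. The words TTTCCCGC, TTTGGCGC, TTTCGCGC and TTTGCCGC were looked for on both strands. At least 1 word was found in 5 of the 12 windows, or 41.7%, compared with 2.26% of all 32851 windows and 5.15% of the 8701 windows with at least 20 CpG dinucleotides. The windows belonged to E2f2, E2f3, E2f7 and Tfdp1, and the 2 windows of Tfdp1 overlap and share their word. The short cell cycle homology region word TTTGAA, which overlaps none of the E2F words, was found in 3 of the 12 windows, in 17.9% of all windows and in 6.99% of those with at least 20 CpG dinucleotides. It lay in windows of E2f2, E2f3 and E2f8. A match describes letters and does not show that a protein binds there, and several start sites lie inside the annotated gene rather than at its end, by 466 bases for E2f1, 477 for E2f8, 1673 for the second window of E2f3, 8508 for the second window of E2f2 and 62459 or more for Tfdp2.

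The stretches that hold the words, except the TTTGAA in the second window of E2f2, are shown 5′ to 3′ on the strand of the gene, from GRCm38.p6, with the words in capitals. A word on the opposite strand appears as its reverse complement, so that GCGGGAAA stands for TTTCCCGC, GCGCGAAA for TTTCGCGC and TTCAAA for TTTGAA.
E2f2, chr4:136172294-136172323 (plus strand): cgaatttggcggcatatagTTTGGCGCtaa
E2f3, chr13:29986064-29986183 (minus strand): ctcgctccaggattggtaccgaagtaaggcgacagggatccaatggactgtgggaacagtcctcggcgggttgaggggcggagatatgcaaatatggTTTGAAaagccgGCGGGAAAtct
E2f7, chr10:110745189-110745308 (plus strand): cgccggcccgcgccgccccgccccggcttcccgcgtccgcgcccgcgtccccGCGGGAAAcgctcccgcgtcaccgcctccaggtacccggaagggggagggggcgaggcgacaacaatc
E2f8, chr7:48881597-48881626 (minus strand): gcgggttaatTTCAAAtcgggggctggact
Tfdp1, chr8:13338605-13338724 (plus strand): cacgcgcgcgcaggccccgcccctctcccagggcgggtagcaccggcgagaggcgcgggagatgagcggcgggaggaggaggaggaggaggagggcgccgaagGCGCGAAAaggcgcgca

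Counted from the start site, the E2F word of E2f2 lay 40 to 47 bases after it, and the TTTGAA of E2f2 lay 26 to 31 bases before the second start site. The E2F word of E2f3 ended 4 bases before the start site and its TTTGAA lay 18 to 23 bases before it, so that both fell within the last 23 bases of the promoter. In E2f7 the word lay 191 to 198 bases before the start site, and in Tfdp1 it lay 36 to 43 bases before the first of its 2 start sites. The TTTGAA of E2f8 lay 15 to 20 bases before the start site.

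The 3 activators were all higher in GC B cells, E2f1 by far the most. E2f1 (ENSMUSG00000027490, chromosome 2, 154559400 to 154569892) encodes the activator best known for driving cells into S phase and, when in excess, into apoptosis. Its level was 53.2, 57.7 and 62.6 TPM in GC pools 1, 2 and 3, and 3.28, 2.94 and 3.15 TPM in naive pools 1, 2 and 3. The lowest GC pool was 16.2-fold above the highest naive pool, and the pools of each population lay close together. The difference was 3.83 ± 0.0889 (SE) on the log2(TPM + 1) scale (limma, adjusted p = 3.54e-07), the 195th highest of the 12785 genes tested. Its level rose from above 18.3% of the tested genes in naive B cells to above 77.5% in GC B cells.

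E2f2 (ENSMUSG00000018983, chromosome 4, 136172274 to 136196057), an activator with known roles in lymphocytes, was already well expressed in naive B cells. It reached 101.2, 100.5 and 89.2 TPM in the GC pools, and 25.3, 27.2 and 22.5 TPM in the naive pools. This was 3.88-fold higher in GC B cells without overlap, a difference of 1.92 ± 0.0882 (SE) on the log2 scale (limma, adjusted p = 5.22e-06). E2f2 was thus the most abundant activator in both populations, and the ratio of E2f1 to E2f2 was 0.526 to 0.701 in GC pools and 0.108 to 0.140 in naive pools.

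E2f3 (ENSMUSG00000016477, chromosome 13, 29906575 to 29986064), which drives S phase entry together with the other two activators, was the member with the largest relative spread among naive pools of those above 1 TPM. Its level was 24.3, 26.4 and 30.6 TPM in the GC pools, and 14.8, 10.6 and 7.38 TPM in the naive pools. The populations did not overlap, but the fold between single pools ran from 1.64 to 4.15 (2.48-fold between means). The difference was 1.28 ± 0.232 (SE) on the log2 scale (limma, adjusted p = 0.00292). The values are per gene, so the E2F3a and E2F3b forms, which start from different promoters, were not separated.

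The repressors E2f4, E2f5 and E2f6 differed less. E2f4 (ENSMUSG00000014859, chromosome 8, 105297663 to 105305370) encodes the main E2F of quiescent cells, which enters the nucleus bound to pocket proteins. Its level was 117.6, 108.9 and 120.1 TPM in the GC pools, and 86.1, 85.9 and 77.4 TPM in the naive pools. The GC pools were higher without overlap, by 1.39-fold between means, which was the smallest difference among the members called (0.47 ± 0.0645 (SE) on the log2 scale, limma, adjusted p = 0.000804). E2f4 had the highest level of the 8 E2f genes in each population.

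E2f5 (ENSMUSG00000027552, chromosome 3, 14578602 to 14606309), a p130-binding repressor, reached 17.2, 17.3 and 19.8 TPM in GC pools 1 to 3, against 12.2, 10.2 and 9.51 TPM in naive pools 1 to 3. All GC pools were above all naive pools, and the difference of means was 1.70-fold (0.72 ± 0.115 (SE) on the log2 scale, limma, adjusted p = 0.00166). The E2f4 to E2f5 ratio was 6.06 to 6.84 in GC pools and 7.06 to 8.40 in naive pools. E2f6 (ENSMUSG00000057469, chromosome 12, 16810909 to 16826752), which lacks the domain that binds pocket proteins, had 14.2, 15.5 and 15.1 TPM in GC pools, against 7.52, 5.68 and 7.19 TPM in naive pools. GC pools were again higher without overlap, by 2.20-fold between means, the largest difference of the 3 repressors (1.04 ± 0.118 (SE) on the log2 scale, limma, adjusted p = 0.000331).

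The atypical members were the family's nearest to an on-off pattern. E2f7 (ENSMUSG00000020185, chromosome 10, 110745439 to 110787384) had 15.5, 17.9 and 16.9 TPM in GC pools 1 to 3, against 0.270, 0.233 and 0.542 TPM in naive pools 1 to 3. The ratio of a GC pool to a naive pool was 28.5 or more for every pair, and the ratio of means was 48.1. The naive values correspond to only about 12.5, 14.6 and 21.8 reads if they are assigned to the longest transcript, so this ratio is imprecise. The difference on the log2(TPM + 1) scale, which understates changes at such low levels, was 3.72 ± 0.133 (SE) (limma, adjusted p = 1.77e-06). E2f7 passed the filter only through its GC level, which limits what this p shows.

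E2f8 (ENSMUSG00000046179, chromosome 7, 48866429 to 48882073), which forms dimers with E2F7, had 57.9, 53.7 and 58.6 TPM in GC pools, against 0.122, 0.370 and 0.284 TPM in naive pools. Its ratio of means was 219.7, and the ratio of single pools lay between 145.4 and 482.2, with about 3.73, 15.4 and 7.57 reads behind the naive values. The difference of 5.52 ± 0.110 (SE) on the log2 scale (limma, adjusted p = 2.41e-07) was the 43rd highest of all genes tested. E2f8 also passed the filter only through its GC level, which limits what this p and rank show. In naive B cells E2f7 and E2f8 could not be ordered, as their pools overlapped, but in GC B cells E2f8 was 3.01 to 3.75 times as abundant as E2f7.

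The DP partners diverged. Tfdp1 (ENSMUSG00000038482, chromosome 8, 13338725 to 13378448) encodes DP1, the general dimerization partner of E2F1 to E2F6. Its level was 204.1, 192.5 and 209.2 TPM in the GC pools, and 15.8, 14.9 and 16.3 TPM in the naive pools. The pools of each population were within a few percent of their mean and were far apart from the other population, with a 12.9-fold difference of means (3.60 ± 0.0585 (SE) on the log2 scale, limma, adjusted p = 1.38e-07). It rose from above 45.9% of tested genes in naive B cells to above 94.4% in GC B cells, and was the most abundant member there. A processed pseudogene, Tfdp1-ps, lies on chromosome 1, and the division of reads between copies was made by the authors' quantification model, which leaves the level of Tfdp1 less certain.

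Tfdp2 (ENSMUSG00000032411, chromosome 9, 96196246 to 96323646), which encodes the alternative partner DP2, was low in both populations. Its level was 1.97, 2.35 and 2.06 TPM in GC pools 1 to 3, against 2.88, 3.12 and 2.67 TPM in naive pools 1 to 3. All GC pools were below all naive pools, 1.36-fold between means, but the difference of -0.31 (95% interval -0.60 to -0.03 before adjustment) was not called (limma, adjusted p = 0.055). The Tfdp1 to Tfdp2 ratio was 81.8 to 103.6 in GC pools and 4.79 to 6.11 in naive pools, so that Tfdp1 was the dominant partner gene in both.

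Some members share bases with other annotated genes, and whether reads were assigned by strand is not given in the sources used here. RefSeq places Necab3 over 7 bases of the E2f1 locus, Rbis over 21 bases of E2f5, and noncoding genes over parts of E2f7, E2f8 and Tfdp2, so that some reads could come from either gene. The longest overlaps were with noncoding genes, over 2630 bases of E2f7, 2584 of E2f8 and 1777 of Tfdp2. Those genes and Rbis had no value here, so their levels are unknown. The neighbours that had a value were low. Necab3 had 5.57, 4.24 and 6.91 TPM in GC pools and 0.594, 0.479 and 0 TPM in naive pools, and Gm2788, which overlaps 774 bases of E2f8, had 0.634, 1.65 and 0.697 TPM, then 0.0675, 0 and 0 TPM.

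Ordered by level in GC B cells, the members ran Tfdp1, E2f4, E2f2, E2f1, E2f8, E2f3, E2f5, E2f7, E2f6 and Tfdp2. The pools of E2f1 and E2f8 overlapped there, as did those of E2f5 with E2f7 and of E2f7 with E2f6, while the other neighbours did not overlap. In naive B cells the order was E2f4, E2f2, Tfdp1, E2f3, E2f5, E2f6, E2f1, Tfdp2, E2f7 and E2f8. There the neighbours E2f3 and E2f5, E2f1 and Tfdp2, and E2f7 and E2f8 overlapped.

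The makeup of E2F mRNA differed between the populations, with a smaller share of repressors and larger shares of activators and atypical members in GC B cells. The 3 activator genes summed to 178.7, 184.6 and 182.4 TPM in the GC pools and to 43.3, 40.7 and 33.1 TPM in the naive pools. They made up 44.2% to 46.4% of all E2f mRNA in GC B cells and 25.8% to 29.0% in naive B cells. The larger share came from E2f1 (mean 14.3% in GC, 2.24% in naive B cells) and E2f2 (24.0% and 17.8%). E2f3 had no larger share, at 6.06% to 7.41% in GC and 5.77% to 9.9% in naive pools. The 3 repressor genes summed to 148.9, 141.7 and 155.1 TPM in the GC pools and to 105.8, 101.8 and 94.1 TPM in the naive pools, 1.48-fold apart in mean where the activators were 4.66-fold apart. The repressors' share was 70.8% to 73.5% in naive and 35.6% to 37.6% in GC pools. E2f4 alone accounted for a mean of 59.4% of E2f mRNA in naive B cells and 28.6% in GC B cells.

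The summed atypical genes were at 71.6 to 75.5 TPM in GC pools and 0.392 to 0.826 TPM in naive pools, or at most 18.3% and at most 0.645% of E2f mRNA. All 8 E2f genes together were at 403.9 ± 7.96 TPM (SD, n = 3) in GC B cells and 140.2 ± 11.1 TPM in naive B cells, 2.88-fold apart. The 2 DP genes were 11.0-fold apart, at 204.0 ± 8.40 TPM and 18.6 ± 0.478 TPM, so the summed partner genes differed more than the summed E2f genes. No test was made on these sums, since the members were chosen with results known.

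**Figure D3:**
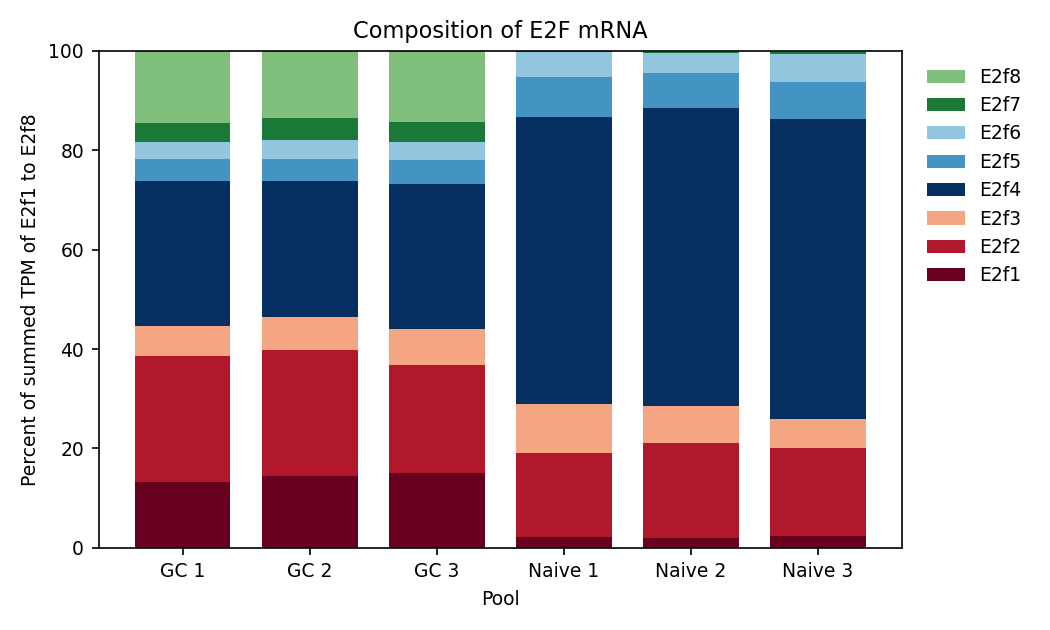
Percent of the summed TPM of E2f1 to E2f8 held by each gene, stacked in each pool. Activators are E2f1 to E2f3, repressors E2f4 to E2f6 and atypical members E2f7 and E2f8. All bars have the same height, so the difference in summed level is not shown. Bars start at 0, and the repressors make up 70.8% to 73.5% of the naive bars and 35.6% to 37.6% of the GC bars.

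Among the pocket proteins that hold E2Fs in check, the differences ran in both directions. Rbl1, which encodes the p107 partner of E2F4, averaged 52.8 ± 1.14 TPM (SD, n = 3) in the GC pools, against 10.5 ± 0.728 TPM in the naive pools (limma, adjusted p = 1.17e-06). Rb1, the retinoblastoma gene whose product binds E2F1 to E2F3, was lower in GC B cells, at 10.5 ± 2.94 TPM against 30.4 ± 2.24 TPM (limma, adjusted p = 0.00059), as was Rbl2, which encodes p130, at 25.4 ± 2.61 TPM against 36.1 ± 1.05 TPM (limma, adjusted p = 0.00225). The ratio of Rbl1 to Rb1 was therefore 3.93 to 6.82 in GC pools and 0.318 to 0.389 in naive pools.

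Most genes of the cyclins and kinases that release E2Fs were higher, and those of the kinase inhibitors differed in direction. Of 8 cyclin and CDK genes upstream of the pocket proteins, 7 were tested, with Ccnd3 (2.39 on the log2 scale, to 470.2 TPM), Ccne2 (4.13), Cdk4 (1.39), Cdk6 (1.36), Ccne1 (1.08) and Cdk2 (1.05) called higher and Ccnd2 (-0.90) called lower. Ccne2 passed the filter only through its GC level. Of the 6 genes with at least 1 TPM in both populations 5 were called higher and 1 lower, beside 33.8% and 29.9% of all such genes. Ccnd1, with 0.351 ± 0.0931 TPM in the GC pools against 0.779 ± 0.217 TPM in the naive pools, was not tested. Of the CDK inhibitors, Cdkn1b, which encodes p27 and keeps lymphocytes quiescent, was called lower (90.2 ± 5.56 TPM in naive, 6.66 ± 0.786 TPM in GC, limma, adjusted p = 6.07e-07), Cdkn2c (2.96) and Cdkn1a (1.10) were called higher, and Cdkn2b (-0.31) was not called. Cdkn2a was listed at 0 in all naive pools and at 1.05, 1.73 and 1.37 TPM in the GC pools, through which alone it entered the test, and Cdkn1c, at 0.854 and 0.402 TPM, was not tested.

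The targets and cofactors of the family were counted from lists. All 30 genes of a list of textbook E2F targets of S phase were called higher, 25 of them with at least 1 TPM in both populations. The median difference of these 25 was 3.14. Of all genes with at least 1 TPM in both populations 33.8% were called higher, and their median was 0.02. Cdk1 (147.1 TPM in GC against 0.598 TPM in naive B cells), Ccna2 (136.5 against 1.07 TPM) and Rrm2 (241.8 against 3.64 TPM) differed most, and Cdt1, picked out after its values were seen, differed least (0.49). An E2F word was found in 13 of the 28 promoter windows of these targets (46.4%). Of 5 genes of the MuvB complex, which binds with E2F4 and p130 in quiescence, Rbbp4 (1.35), Lin54 (0.75) and Lin9 (0.54) were called higher, while Lin37 (0.23) and Lin52 (0.25) were not called. The differences were larger for Mybl2 (4.46) and Foxm1 (4.29), which encode later partners of the complex, and for the related Mybl1 (6.87), all called higher.

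Of 12 genes of the polycomb complex of E2F6, 7 were called higher and 2 lower (median 0.23), beside the 33.8% and 29.9% given above for genes expressed in both populations, with Cbx3 (1.61), Yaf2 (0.99) and Hdac1 (0.48) the largest rises and Rnf2 (-0.98) and Mga (-0.58) the falls. Of 5 germline genes known to be silenced by E2F6, Stag3 alone was tested, having passed the filter only through its GC level (2.91 ± 0.592 TPM in GC pools against 0.450 ± 0.306 TPM in naive pools, called higher), and Smc1b, Tuba3a, Tuba3b and Slc25a31 were at or near 0 in all pools. All 5 genes that govern E2F protein breakdown and the cell cycle ligases were called higher (median 2.15), beside 33.8% of all genes expressed in both populations. They were Cks1b (5.02), Ccnf (3.69), Skp2 (2.15), Fbxo5 (2.04) and Fzr1 (1.22). Cks1b assists SKP2, and Ccnf encodes the cyclin that targets E2F1 to E2F3 and E2F7 to E2F8.

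**Figure D4:**
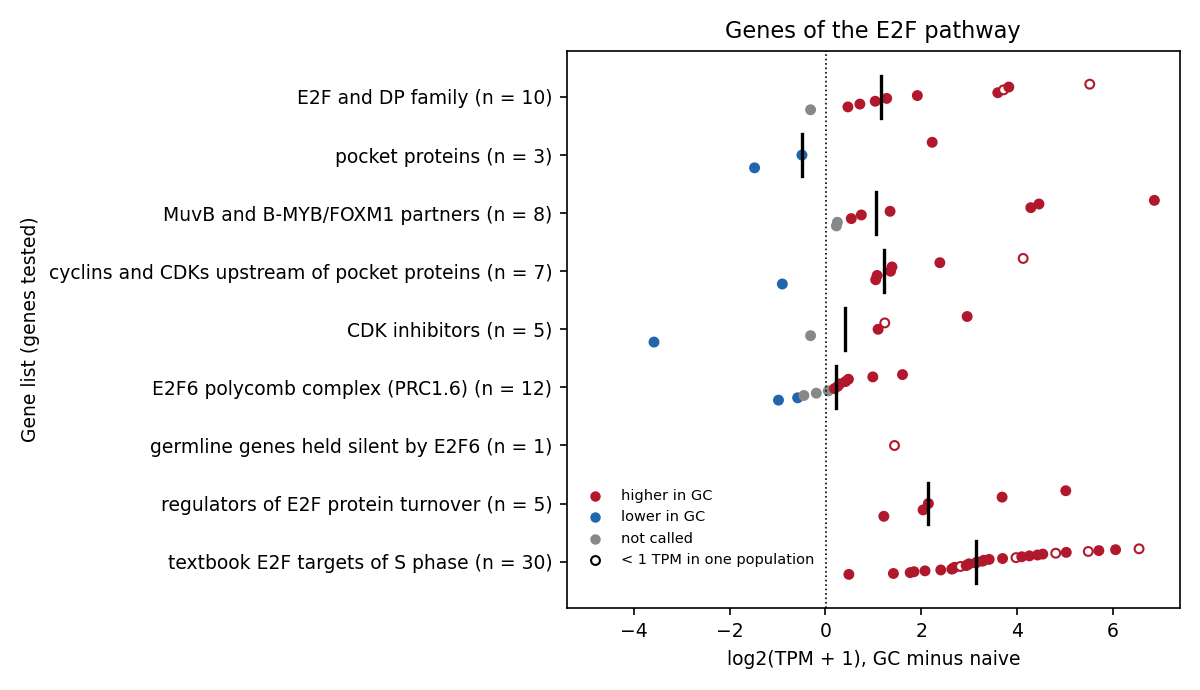
Difference in log2(TPM + 1), GC minus naive, for the tested genes of the family and of each list, 1 point per gene, with a black bar at the median of genes with at least 1 TPM in both populations (open points are the others). The family's bar lies at 1.16, the S phase targets have the rightmost bar at 3.14, and the dotted line marks the median of 0.02 over all such genes.

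The genes whose profiles over the 6 pools were most like that of the member with the largest rise were found by the Euclidean distance between centred log2(TPM + 1) values. For E2f8 these were Nuf2 (distance 0.237), which encodes a kinetochore protein, Cdca3 (0.301) and Mcm10 (0.301), a replication factor, with differences of 5.60, 5.71 and 5.49 beside 5.52 for E2f8. For Tfdp2, the one member with a lower level in GC B cells, they were Arhgef7 (0.0613), Lrp10 (0.0661) and Agap2 (0.0781), all with small differences of -0.30, -0.31 and -0.36. With pools of GC and naive B cells only, this distance largely reflects the size of the difference between them. Nuf2 and Mcm10, like E2f8, were under 1 TPM in every naive pool, where the 1 added to TPM shapes the profile.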

How the data were processed

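RNA-Seq of 3 GC and 3 naive B cell pools was used, with groups and pool numbers taken from the sample labels. After adapter trimming (cutadapt v1.9), the authors ran RSEM v1.2.25 against NCBIm38 v75 transcripts, setting fragments to a mean of 180 with an SD of 50. The deposited values are FPKM per gene and pool. The submitters' processing notes also name CASAVA 1.8 and FastQC, which the paper gives for demultiplexing and read quality, and edgeR, whose role is not stated. The paper's text states no further normalization between pools.

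Each pool's FPKM were rescaled to sum to 1000000, which gives TPM. Symbols were matched through the mouse annotation for 33398 of 39179 identifiers, and Cdkn2d found no match. Depth was read off the smallest FPKM increments of single-transcript genes (500 to 3000 bp), of which 75.3% to 79.5% lay within 0.15 of a whole read, so depths are rough and counts were not modelled. Reads per member assume the longest transcript.

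The test was limma 3.58.1 (R 4.3.3, lmFit and trended eBayes) on log2(TPM + 1) of all 6 pools, for genes that reached 1 TPM in 3 or more pools, with Benjamini-Hochberg adjustment over all genes tested. A pseudocount of 1 understates the change of low genes. The fit was tested on simulated data. Other steps used Python 3.11.15, numpy 2.4.6, pandas 2.3.3 and matplotlib 3.10.9. Pools with the same number were not treated as pairs. The correlations of their deviations from the group means were 0.083, 0.0225 and 0.0456.

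Members and gene lists were chosen with earlier results of these data known. Named genes were all members, all genes of lists of up to 8, the 3 largest rises and falls called in longer lists, and the 3 genes most like E2f8 and Tfdp2 in profile. Some genes and 1 gene list under this rule are not reported here. Positions and promoter windows came from RefSeq (GRCm38.p6). Alternatives covered the pseudocount, the filter, FPKM as deposited, other normalizations, eBayes without trend, a block on replicate number, and omission of each pool in turn. Protein sequences and the capture sequencing of the study were not used here.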

Additional observations from a re-analysis of the deposited data

How the results depend on the processing

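Of 427 results recomputed under an alternative, 421 were classed as the same. For a gene this meant the same direction and side of the threshold, and for a count a value within 1.5 times. For a summed level it meant a shift smaller than the spread between pools. Counts that were 0 under both settings are among the 421 and say little. The calls of E2f7 and E2f8, which passed the filter only through their GC levels, could hardly have changed. With them included, the 9 members called higher were called higher under every alternative run. Their log2 differences ran from 3.68 to 4.17 for E2f1, 1.81 to 1.98 for E2f2, 1.05 to 1.51 for E2f3, 0.33 to 0.51 for E2f4, 0.65 to 0.81 for E2f5, 0.93 to 1.13 for E2f6, 3.38 to 5.29 for E2f7, 5.14 to 7.38 for E2f8 and 3.50 to 3.68 for Tfdp1, with the highest values of E2f7 and E2f8 at a pseudocount of 0.1. The highest adjusted p among them (limma) was 0.0125, for E2f3 with 1 pool left out. Tfdp2 was called lower under 4 alternatives, namely quantile normalization (-0.40, limma, adjusted p = 0.0153), median-of-ratios scaling (-0.34), FPKM as deposited (-0.32) and eBayes without trend (-0.31). Its adjusted p ran from 0.0148 to 0.148 over the 13 alternatives in which it was tested. The cyclin and CDK genes called lower numbered 2 with no filter, where more genes were tested, and the germline genes called higher numbered 0 with a filter of 5 TPM, under which Stag3 was not tested.

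With the replicate number as a block, limma called 4342 genes higher and 3618 lower, beside 4540 and 3852 without it, and no member's call changed. The paper does not say whether a GC pool and a naive pool of equal number share mice. Their deviations correlated at 0.083 for number 1, 0.0225 for number 2 and 0.0456 for number 3. For unequal numbers the values ran from -0.0746 to 0.0298, the latter for naive pool 2 with GC pool 3. All these correlations were small, so they cannot decide whether the pools were paired. Leaving out 1 pool gave 4169 to 4350 higher and 3390 to 3816 lower calls. Quantile normalization gave 4080 higher and 4450 lower calls.

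Depth limits E2f7 and E2f8 in naive B cells most, where a value rests on about 3.73 to 21.8 reads. With 3 pools per population and pooled mice, the difference of Tfdp2 (-0.31) lay near the threshold.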
